A study of Solanum lycopersicum x Solanum pennellii and Solanum lycopersicum with 21 samples.

Results

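The 200 unnamed probe sets that varied most between arrays of the same group were examined in tomato anthers, out of 9129 unnamed probe sets (2.19%) and 10038 probe sets in all. A probe set was unnamed when the platform's annotation gave it no gene symbol, which does not mean that it lacks a gene. The 200 were chosen by their pooled within-group SD: each probe set's group means were subtracted, the squared deviations were summed over 21 arrays, and the sum was divided by 16 residual degrees of freedom. Deviations, SDs, clusters and array shares below were therefore used, or follow directly from what was used, in the choice, and they are given as a description without a test. No sequence or functional annotation was at hand for these probe sets, so they are called by their array identifiers.

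Anthers were collected 1 day before anthesis, and their transcripts were measured on Affymetrix tomato arrays. Introgression lines carry a segment of the wild tomato Solanum pennellii in a domesticated background. Of the 21 arrays, 3 are of IL-1_1_3, 4 of IL-4_2, 4 of IL-7_2, 4 of IL-8_1_1 and 6 of the domesticated parent M82. The line characteristic shortens the names of IL-1_1_3 and IL-8_1_1 to IL-1_1 and IL-8_1, hybrids is the word of the series design for the lines, and how many copies of the segment a plant carried is not labelled. All plants were raised alike in a greenhouse and carried no transgene or treatment named in the labels, and the titles of the M82 arrays call them pollen controls while their tissue is given as anthers. Array values are log2 expression, from 3.39 to 14.69, with array medians of 9.49 to 9.55. Precision is limited by the number of arrays, since such values have no read depth, and changes of dim probe sets may understate the change in transcript.

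An anther is a mixed organ. Pollen fills the locules, the tapetum that fed it has largely broken down by this stage, and the epidermis, the wall and the vascular strand surround the locules. In the last hours before a flower opens the filament elongates, the anther wall loses water and the stomium opens, and the hormones ethylene and jasmonate, cell wall enzymes and stored transcripts of the pollen are known to take part in this period. In whole anthers, fewer cells of a type and less RNA per cell cannot be told apart.

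The pooled SD of the 200 probe sets ran from 2.73 down to 0.86 log2 units with a median of 1.07, against a median of 0.19 over all unnamed probe sets. Les.863.1.A1_at had the highest SD. At the threshold, Les.5198.1.S1_at and LesAffx.65156.1.A1_at lay just inside (both 0.86), and LesAffx.57779.1.S1_at (0.86) and Les.1314.1.S1_at (0.85) just outside. These 200 held 30.9% of the within-group squared deviations of all unnamed probe sets.

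The 200 probe sets mostly moved together. The first principal axis of their deviations from group means held 69.4% of their variance and the second 7.81%. The first axis held 56.7% in the other 8929 unnamed probe sets and 56.4% in the 909 with a symbol. Array scores on the axis of the 200 correlated with those on the axis of the symbol-bearing probe sets at r = 0.997 (Spearman's rho = 0.992, n = 21 arrays) and with those of the other unnamed probe sets at r = 0.977. These are descriptions, since all 3 sets were read from the same arrays.

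A single array carried the largest part. IL-7_2 array 2 held 24.1% of the squared deviations of the 200 probe sets and 23.5% of those of all unnamed probe sets. For 144 of the 200 probe sets, the largest deviation of any array was in IL-7_2 array 2. The next arrays were IL-7_2 array 3 (10.7%), M82 array 3 (8.54%), IL-7_2 array 4 (6.95%), M82 array 6 (6.60%), M82 array 4 (5.82%) and IL-8_1_1 array 2 (5.43%). By group, the share was 3.82% in IL-1_1_3, 6.39% in IL-4_2, 45.1% in IL-7_2, 11.1% in IL-8_1_1 and 33.6% in M82. Their residual degrees of freedom would give 12.5% to IL-1_1_3, 18.75% to each of the other lines and 31.25% to M82. IL-7_2 was therefore the group that exceeded its share by most, while IL-1_1_3, IL-4_2 and IL-8_1_1 stood below theirs.

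**Figure D1:**
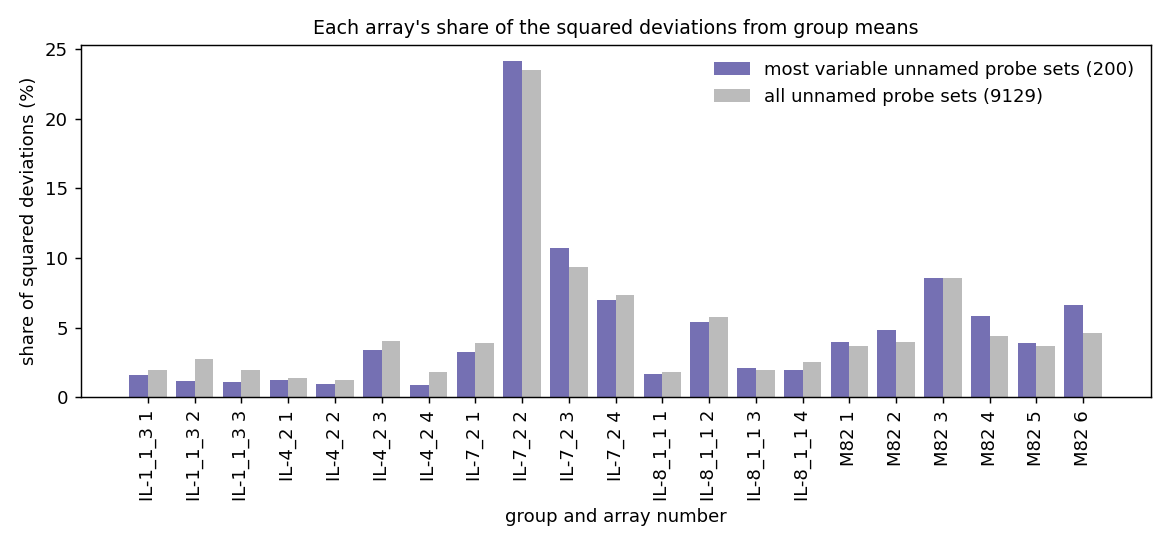
Share of the summed squared deviations from group means held by each of the 21 arrays (vertical axis, percent), for the 200 most variable unnamed probe sets and for all 9129 unnamed probe sets. IL-7_2 array 2 is highest in both, at 24.1% and 23.5%.

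The spread within a group followed the same order. The median probe set of the 200 had an SD of 0.56 in IL-1_1_3, 0.58 in IL-4_2, 1.70 in IL-7_2, 0.73 in IL-8_1_1 and 1.04 log2 units in M82. The corresponding medians over all unnamed probe sets were 0.14, 0.13, 0.25, 0.15 and 0.18 in the same order of groups. The difference between the highest and lowest array of a group reached at least 4 log2 units for 1 of the 200 within IL-1_1_3, 1 within IL-4_2, 75 in IL-7_2, 5 in IL-8_1_1 and 27 in M82. It reached at least 2 log2 units in 18, 32, 185, 59 and 156 probe sets in that order. Groups with more arrays have more room for a wide range, and M82 had the most arrays.

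Average linkage on the correlation of deviations, with branches cut at a distance of 0.5 (1 minus r), gave 4 clusters of at least 5 probe sets. Cluster 1 had 109 probe sets (54.5%), cluster 2 had 64 (32%), cluster 3 had 9 and cluster 4 had 5, and 13 lay outside. The median correlation between members was 0.83, 0.81, 0.88 and 0.77 in clusters 1 to 4. The mean deviations of clusters 1 and 2 ran against each other, with r = -0.85 over 21 arrays.

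**Figure D2:**
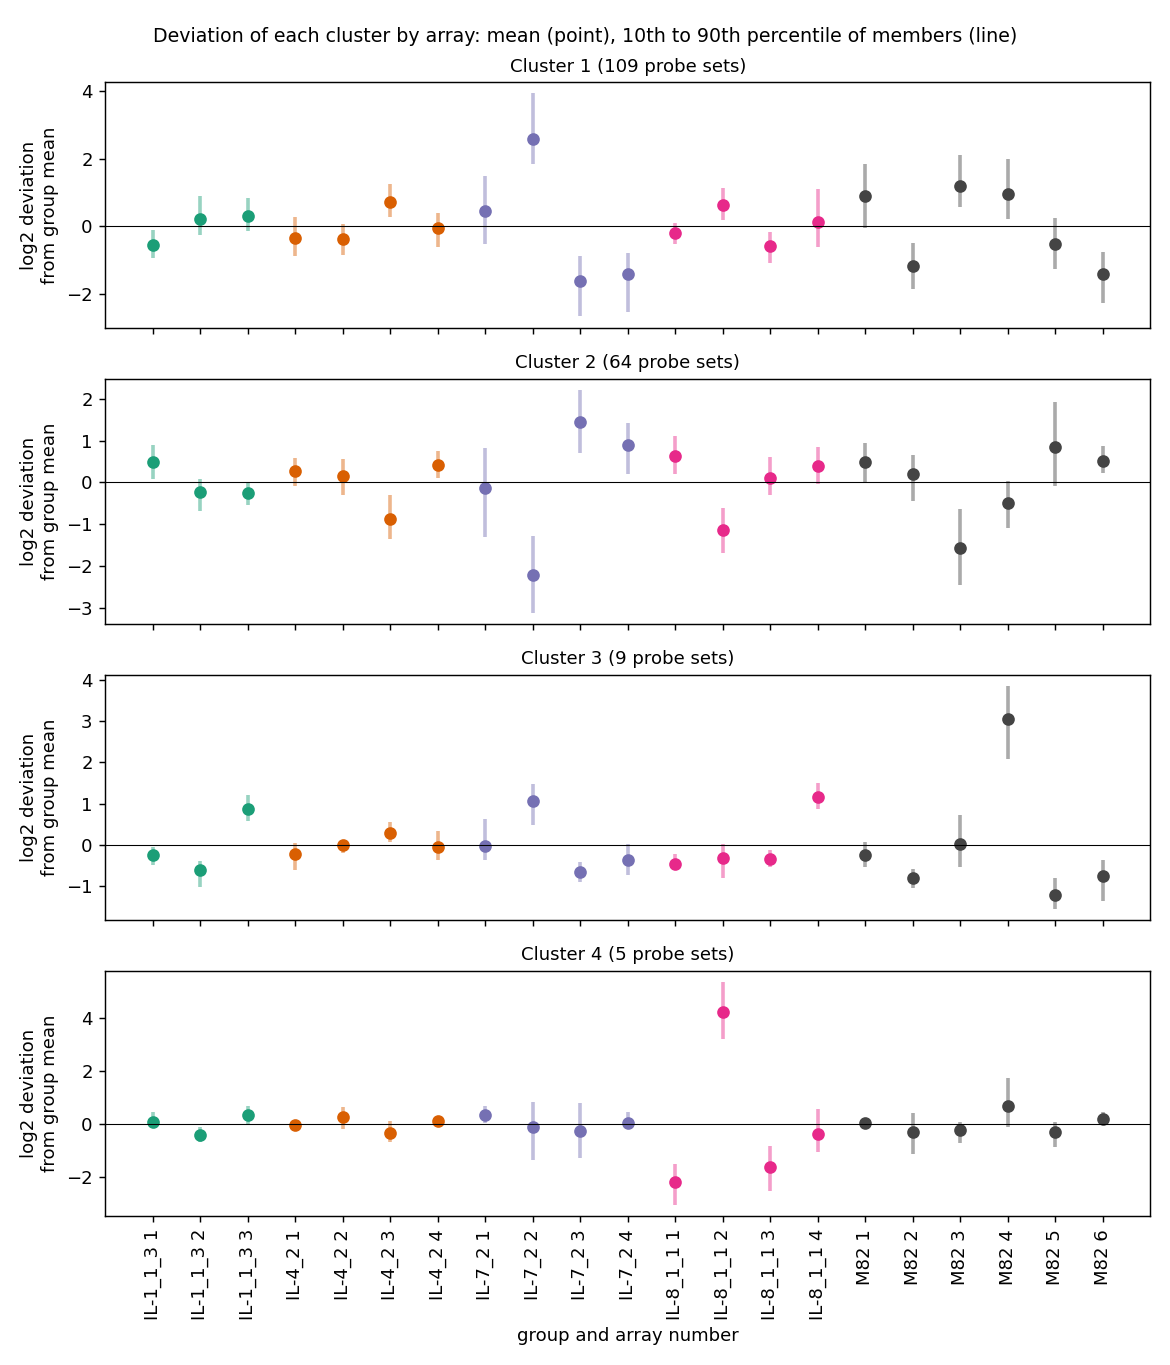
Mean deviation from the group mean of the probe sets of each cluster (points, log2 units, vertical axis) in each of the 21 arrays (horizontal axis), with lines from the 10th to the 90th percentile of the probe sets. Cluster 1 is highest and cluster 2 lowest in IL-7_2 array 2 (2.57 and -2.21), cluster 3 is highest in M82 array 4 (3.07), and cluster 4 is highest in IL-8_1_1 array 2 (4.21).

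The probe sets of cluster 1 covered wide ranges at different heights of the scale. Over its 109 probe sets, the level in the lowest array had a median of 6.82 (3.68 to 10.37) and that in the highest array a median of 11.34 (7.13 to 14.19). Les.863.1.A1_at stood at 11.75, 12.50 and 12.72 in the IL-1_1_3 arrays, at 11.26, 11.78, 12.44 and 11.28 in IL-4_2, at 11.14, 13.43, 5.22 and 5.20 in IL-7_2, and at 11.38, 12.40, 10.57 and 12.46 in IL-8_1_1. In M82 its lowest array was at 4.39, the median was 9.79 and the highest was 11.77. IL-7_2 arrays 3 and 4 and M82 arrays 2 and 6 were thus low, at 5.22 or below, M82 array 5 was between at 7.89, and the other 16 arrays were at 10.57 or above.

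LesAffx.823.1.S1_at stood at 12.40, 13.89 and 13.36 in IL-1_1_3, at 12.69, 12.69, 13.98 and 13.61 in IL-4_2, at 12.41, 14.19, 4.56 and 5.50 in IL-7_2 and at 13.65, 14.01, 13.19 and 13.18 in IL-8_1_1, and in M82 it ran from 9.14 to 13.83. Here only IL-7_2 arrays 3 and 4 fell to the bottom of the scale, and M82 arrays 2 and 6 were partly lowered (10.41 and 9.14). LesAffx.69245.1.S1_at also had its lowest values in IL-7_2 arrays 3 and 4 (4.61 and 4.53), with M82 arrays 2 and 6 at 7.11 and 5.69. Les.5052.1.S1_at was low in IL-7_2 arrays 3 and 4 (4.57 and 4.48) and in M82 arrays 2 and 6 (4.59 and 4.10), and lay between 7.55 and 12.62 in the other arrays. The most variable members of the cluster therefore shared their low arrays but not the depth of the low values.

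Taken over the 109 probe sets of cluster 1, all were above their group mean in IL-7_2 array 2 (mean deviation 2.57) and none was in IL-7_2 arrays 3 and 4 (-1.62 and -1.40). IL-7_2 array 1 lay between, at 0.45. In M82, arrays 1, 3 and 4 were high (0.91, 1.20 and 0.96, with 97, 106 and 104 probe sets above the mean), and arrays 2, 5 and 6 were low (-1.15, -0.52 and -1.40). IL-4_2 array 3 (0.73) and IL-8_1_1 array 2 (0.64) were the high arrays of their groups. The mean level of the cluster was 9.75 ± 0.46 in IL-1_1_3 (SD, n = 3), 9.41 ± 0.51 in IL-4_2, 8.65 ± 1.95 in IL-7_2, 9.41 ± 0.52 in IL-8_1_1 (n = 4 each) and 8.84 ± 1.16 in M82 (n = 6).

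**Figure D3:**
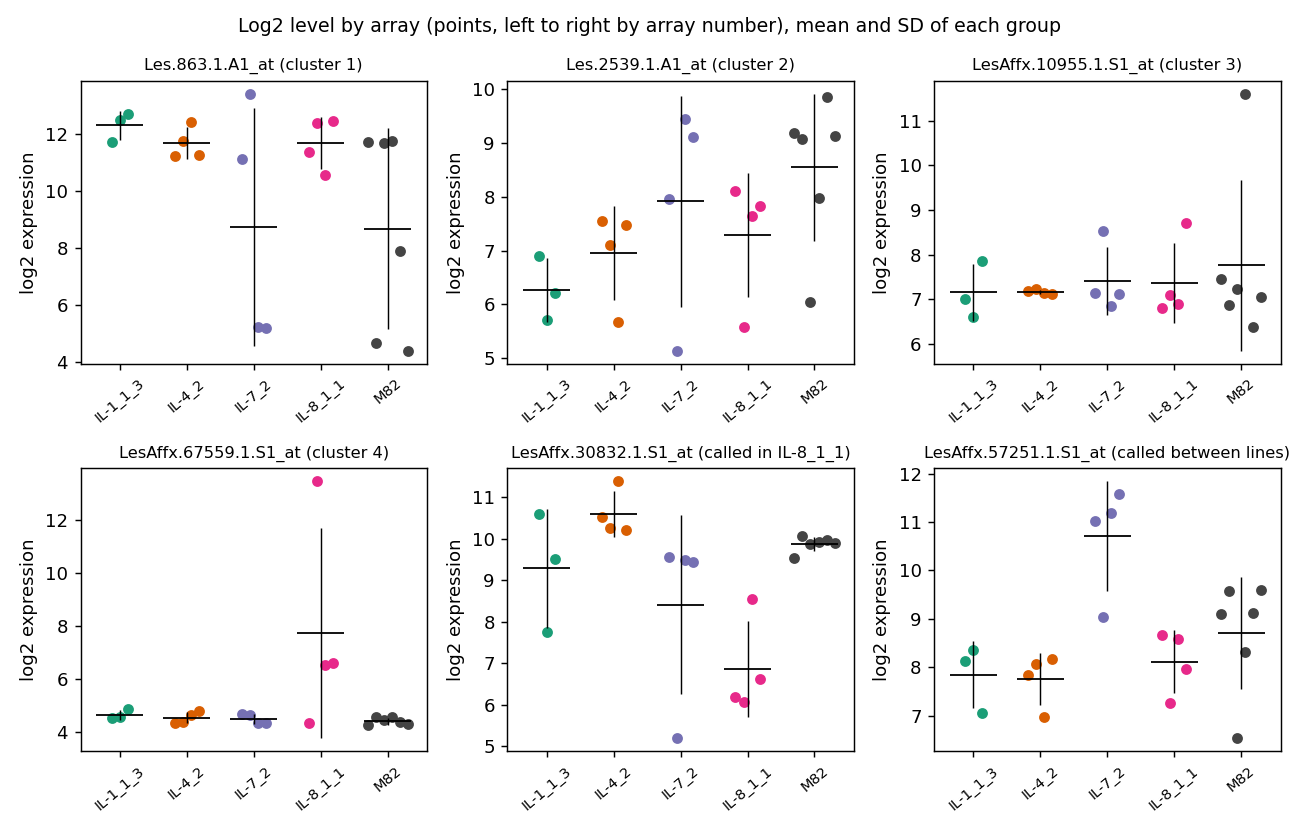
Log2 expression (vertical axis) of 6 unnamed probe sets in every array (points, left to right by array number), with the mean and SD of each group (black lines). Les.863.1.A1_at lies at 5.22 or below in 2 IL-7_2 and 2 M82 arrays, and LesAffx.67559.1.S1_at is bright in IL-8_1_1 array 2 (13.47).

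Cluster 2 went the other way, and its defining array was the same. Les.2539.1.A1_at, among the closest to the cluster's mean, stood at 6.90, 5.71 and 6.21 in IL-1_1_3, at 7.56, 7.11, 5.67 and 7.47 in IL-4_2, at 7.97, 5.14, 9.45 and 9.10 in IL-7_2 and at 8.10, 5.57, 7.63 and 7.83 in IL-8_1_1, and in M82 it ran from 6.05 to 9.85. It was lowest in IL-7_2 array 2 and, within each other group of 4 or more arrays, in IL-4_2 array 3, IL-8_1_1 array 2 and M82 array 3. Each of these arrays was the highest of its group in cluster 1. M82 array 1 did not follow this opposition, being above its group mean in both clusters (0.91 in cluster 1, and 0.50 in cluster 2 with 57 of 64 probe sets above). IL-8_1_1 array 4 was also above its group mean in both, by less (0.13 in cluster 1, and 0.39 in cluster 2 with 54 of 64 above). All 64 probe sets of cluster 2 were below their group mean in IL-7_2 array 2 (mean deviation -2.21) and in IL-8_1_1 array 2 (-1.13), and 63 of 64 were below it in M82 array 3 (-1.57). IL-7_2 array 3 was the highest of the 21 arrays for this cluster (1.44).

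Les.3218.2.A1_at had the highest SD of cluster 2 (1.95). It lay between 3.98 and 4.99 in all IL-1_1_3 and IL-4_2 arrays, and reached 10.25 in IL-7_2 array 3 and 10.99 in M82 array 5. The mean level of cluster 2 was 8.03 ± 0.41 in IL-1_1_3 (SD, n = 3), 8.56 ± 0.59 in IL-4_2, 8.95 ± 1.61 in IL-7_2, 8.85 ± 0.78 in IL-8_1_1 (n = 4 each) and 9.55 ± 0.89 in M82 (n = 6). The M82 arrays ran from 7.98 (array 3) to 10.38. The line arrays ran from 6.74 to 10.40, and both ends were arrays of IL-7_2 (arrays 2 and 3). Outside IL-7_2, the highest line array was IL-8_1_1 array 1 (9.48). M82 arrays 1, 2, 5 and 6 lay above that array (10.04, 9.76, 10.38 and 10.06), as did IL-7_2 array 4 (9.85), and M82 arrays 3 and 4 lay below it (7.98 and 9.05).

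**Figure D4:**
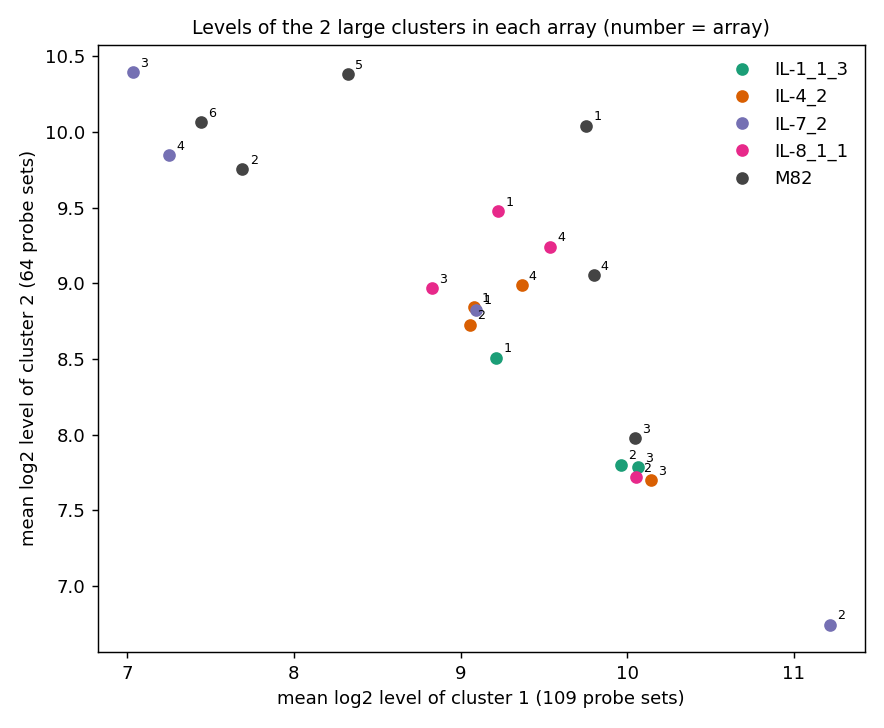
Mean log2 level of cluster 1 (109 probe sets, horizontal axis) against that of cluster 2 (64 probe sets, vertical axis) in each array, with points numbered by array and coloured by group. The arrays run from IL-7_2 array 3 (7.03 and 10.40) at one end to IL-7_2 array 2 (11.22 and 6.74) at the other, and the M82 arrays span much of the same band.

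The small clusters were each carried by other arrays. Cluster 3, with 9 probe sets, had a mean level of 10.89 in M82 array 4 against 6.60 to 7.84 in the other 5 M82 arrays, and M82 array 4 alone held 51.2% of its squared deviations. IL-8_1_1 array 4 was also high (8.83), as were IL-7_2 array 2 (8.76) and IL-1_1_3 array 3 (8.66). LesAffx.10955.1.S1_at, the probe set nearest to its mean, stood at 8.70 in IL-8_1_1 array 4, at 11.60 in M82 array 4 and between 6.38 and 8.52 elsewhere. Its companions LesAffx.10955.2.S1_at and LesAffx.10955.3.S1_at reached 11.69 and 12.31 in M82 array 4. The 3 share the first number of their identifiers, so they may report on 1 transcript or a family and are not separate evidence.

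Cluster 4, with 5 probe sets, was high in IL-8_1_1 array 2 alone. Its mean level there was 12.12, against 5.71, 6.28 and 7.52 in IL-8_1_1 arrays 1, 3 and 4, and this array held 54.8% of its squared deviations. LesAffx.67559.1.S1_at stood at 4.36, 13.47, 6.52 and 6.59 in the IL-8_1_1 arrays and between 4.26 and 4.88 in each of the other 17 arrays. Les.3663.1.S1_at reached 9.30 in IL-8_1_1 array 2 and lay between 5.04 and 5.87 in the other 20 arrays. LesAffx.344.2.S1_at reached 11.83 in that array, with 5.35 to 8.49 in the others.

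Probe sets with the same first number in their identifier allowed a comparison within the set. Among the 200, 20 such numbers were shared by 44 probe sets, and in 19 of the 20 all of them fell in the same cluster. Les.2403.1.S1_at and Les.2403.2.S1_at correlated at 0.999 over the 21 arrays. The exception was LesAffx.344, with 2 probe sets in cluster 4 and 1 in cluster 1 (lowest r 0.42). Identifiers with the prefix LesAffx made up 51.5% of the 200 and 45.2% of all unnamed probe sets, and those with the ending A1 made up 21.5% and 25.1%.

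Genes with a symbol show which known transcripts moved with the clusters. Of 626 genes with an informative symbol, 105 correlated at 0.8 or above and 74 at -0.8 or below with the mean deviation of cluster 1 over the 21 arrays, and 88 and 63 did so with that of cluster 2. All correlations with the clusters are across 21 arrays after subtracting group means, share the arrays and their normalisation with the clusters, and are given without a p-value. The median over the 626 genes was 0.15 for cluster 1 and -0.14 for cluster 2, and 352 and 283 of them had a positive correlation.

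The genes closest to cluster 1 were opr2, a 12-oxophytodienoate reductase (0.98), GRAS6, a GRAS family regulator (0.97), XTH5, a xyloglucan endotransglucosylase (0.97), and ETR5, an ethylene receptor (0.97). ACO6, an ACC oxidase of ethylene synthesis, followed at 0.96, and its other 2 probe sets stood at 0.97 and 0.98. AI, CIP2b, TFT7, GRAS10, INT4, MAPKKKalpha and DGK1 stood between 0.96 and 0.97, although a second probe set of INT4 gave 0.76. Without IL-7_2 arrays 2 and 3, the arrays farthest from the median of the cluster, these 12 lay between 0.93 and 0.98. At the other end were kdsA, an enzyme that makes a sugar of pectin (-0.95), SCOA (-0.94), MDHAR, a monodehydroascorbate reductase (-0.94), copz1, a coatomer subunit (-0.93), and csn5, a signalosome subunit (-0.93). STV3, DAD1, UBC27, DEM, FPPS1, rpl38 and RPS25 lay between -0.93 and -0.91.

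The genes closest to cluster 2 were EXPA6, an expansin (0.97, and 0.22 at its other probe set), CITRX, a thioredoxin (0.97), the ribosomal protein gene L23 (0.97), SBT2, a subtilase (0.97), and the ribosomal protein genes RPL3 and rpl38 (0.96 each). Without IL-7_2 array 2 and M82 array 3 they lay between 0.90 and 0.96. MAPKKKalpha (-0.92), MKK2 (-0.91), CCH (-0.91), THM27, INT4 and Rab1A (-0.91 each) ran most strongly against it, and without the same arrays they lay between -0.84 and -0.77.

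Genes with a symbol also reached the spread of the 200. Of 909 probe sets with a symbol, 58 (6.38%) had a pooled SD at or above that of the 200th unnamed probe set, and 40 of the 626 genes did. UREF, a urease accessory protein, had an SD of 2.72 and correlated with cluster 1 at 0.91. It was followed by LOXB, a lipoxygenase (SD 2.31, r = 0.87), AOX1a, the alternative oxidase of mitochondria (2.05, 0.94), ACS8, an ACC synthase (2.03, 0.89), and TAPG4, a polygalacturonase known from abscission zones (1.88, 0.89). CHI14, a chitinase (1.65, 0.88), rnalx, a ribonuclease (1.52, 0.93), PRK3, a pollen receptor kinase (1.51, 0.89), Cel1, a cellulase (1.46, 0.81), and JA2, a NAC regulator (1.29, 0.88), went the same way. AGAL, an alpha-galactosidase (1.29, -0.84), XET4 (1.25, -0.85) and EXPA6 (1.20, -0.86) went with cluster 2. The pathogenesis-related genes PR1b1 (SD 1.82) and P4 (1.46) varied as widely with weaker correlations to cluster 1 (0.57 and 0.23), as did ER21 (SD 1.46, r = 0.39), CHI3 (1.25, 0.65) and PR-P2 (1.23, 0.37). MTSHP (1.29, 0.02) and XTH3 (1.20, -0.11) were nearest to 0. Some of these weaker values rested on IL-7_2 arrays 2 and 3, without which PR-P2 stood at 0.66, P4 at 0.38, MTSHP at 0.31 and XTH3 at 0.03.

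**Figure D5:**
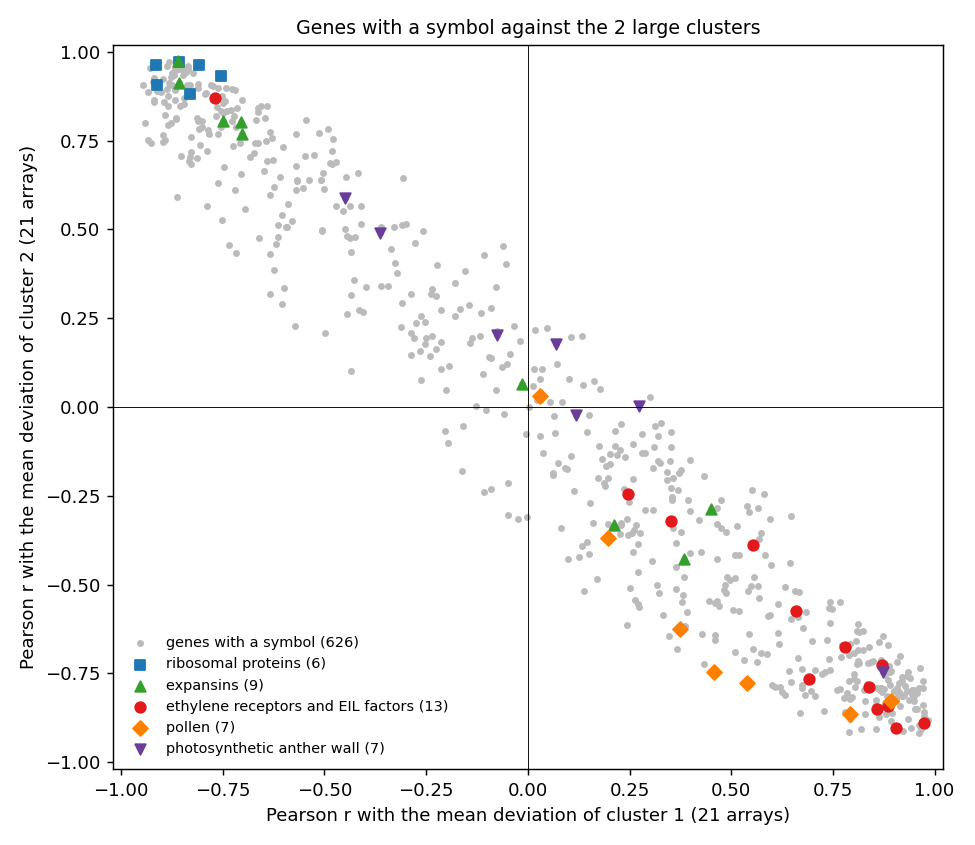
Pearson correlation of each of 626 genes with the mean deviation of cluster 1 (horizontal axis) and of cluster 2 (vertical axis) over 21 arrays, with genes of 5 lists marked. The 6 ribosomal protein genes lie between -0.91 and -0.75 for cluster 1, and the 7 pollen genes lie at 0.03 or above.

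Cell type markers moved in part with cluster 1. All 7 measured pollen genes had a positive correlation with it (median 0.46): PRK3 (0.89) and PRK1 (0.79) are pollen receptor kinases, Shy (0.54) is a pollen tube protein, and LAT61 stood at 0.03. Stig1 (0.20) was placed among them although in tomato it is known as a peptide of the stigma. The mean level of the 7 was 11.23 in IL-7_2 array 2 and 9.99 and 10.08 in IL-7_2 arrays 3 and 4, against 10.31 to 11.06 in M82. It was 11.94 in IL-8_1_1 array 2, 11.20 in IL-4_2 array 3 and 11.14 in IL-1_1_3 array 2. The mean deviation of cluster 1 in those arrays was only 0.64, 0.73 and 0.22, so the pollen mean did not simply follow the cluster. Stig1 is part of all these means. The 7 did not vary alike: PRK3 (pooled SD 1.51), Stig1 (1.03) and PRK1 (0.55) varied most. PRK2 (0.25), PRO1 (0.20), Shy (0.09) and LAT61 (0.09) varied little, so the mean does not stand for each gene. Of the 7, Stig1 was near the bottom of the scale on average (4.54). The 7 genes of photosynthesis had a median of 0.07 (PSBO 0.87, PSBP -0.45), the epidermal gene TSW12, a lipid transfer protein, stood at 0.77, and of 5 stress genes 2 had a positive correlation (median of the 5, -0.20), from Hsp90-1 (-0.66) and HSP21 (-0.48) to HSP17-6 (0.24). No marker of the tapetum or of vascular tissue was among the named genes. The part of these cell types in the clusters was not tested.

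The following lists were drawn up after correlations had been seen and describe them only. Beside their counts, 352 of all 626 genes had a positive correlation with cluster 1. The 6 ribosomal protein genes all ran against cluster 1 (median -0.84) and with cluster 2 (median 0.95). Of 9 expansins, which loosen cell walls, 6 had a negative correlation with cluster 1 (median of the 9, -0.70), among them EXPA3 (-0.86) and EXP5 (-0.75), while EXP1 was near 0 (-0.01) and EXPA4 stood at 0.45. EXP1 and EXPA8 were near the bottom of the scale on average (4.47 and 4.43), so their correlations say little. Of 13 ethylene receptor and signalling genes, 12 had a positive correlation with cluster 1 (median of the 13, 0.78), among them EIL2 (0.90), EIL3 (0.89) and ETR4 (0.87), and the receptor gene ETR2 stood at -0.77. Of 11 ACC synthases and oxidases, 10 had a positive one (median 0.47). All 4 genes of the plastid isoprenoid route and phytoene synthesis ran with cluster 1 (median 0.88) and with cluster 3 (median 0.77). Of 10 lipoxygenase and jasmonate genes, 3 had a positive correlation with cluster 1 (median of the 10, -0.45), opr2 and LOXB among them. The others ran against it, among them OPR1 (-0.89), AOC (-0.88) and HPL (-0.75). The 9 xyloglucan endotransglucosylases (5 positive, median 0.15), the 10 polygalacturonases and cellulases (6 positive, median 0.40) and the 10 chitinase and pathogenesis-related genes (7 positive, median 0.21) were mixed.

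Few named genes followed the small clusters. With cluster 3, 4 of the 626 genes correlated at 0.8 or above. PSY2, a phytoene synthase, stood at 0.86 and at 0.66 without M82 array 4 and IL-8_1_1 array 4, and ACS2, an ACC synthase, at 0.81 and 0.40. CAT2, a catalase (0.85 and 0.86), PDF1B, a peptide deformylase (0.80 and 0.88), TAGL1, a MADS box factor (0.79 and 0.85), and HDS, an enzyme of plastid isoprenoid synthesis (0.77 and 0.91), kept their correlation without those 2 arrays. PDH stood lowest (-0.72, and -0.90 without them). The correlations of PSY2 and ACS2 rested in part on those 2 arrays.

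With cluster 4, 6 genes correlated at 0.8 or above: AMT1-2, an ammonium transporter (0.93), Stig1 (0.93), OVATE, a regulator of fruit shape (0.89), 2A11 (0.88), IAA7, an auxin response repressor (0.87, and 0.16 at its other probe set), and DES (0.85). Without IL-8_1_1 arrays 2 and 1 the values were 0.60, 0.16, 0.28, 0.31, 0.62 and 0.01 in the same order, so these relations rested largely on those arrays. The pollen list had its highest mean of any array in IL-8_1_1 array 2 (11.94), and Stig1 was part of that mean. Whether another floral tissue took part in that array was not tested.

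Measures of the arrays themselves correlated with the first axis at -0.55 to 0.60. Over 21 arrays, with 8 relations computed, the difference of 3' and 5' control probe sets correlated with the axis at 0.11 for actin, 0.10 for gapdh, 0.37 for ef1a and 0.02 for ubiquitin. The 18 hybridisation controls stood at 0.43 and the interquartile range of the array at 0.46. The highest were the mean of the 63 reporter probe sets (r = 0.60, rho = 0.51) and the array median (r = -0.55, rho = -0.36). With IL-7_2 array 2 and M82 array 3 left out, which lay farthest from the median of the axis, these last 2 became 0.52 and -0.25, and that of the interquartile range -0.01. The reporter mean ran from 4.39 to 4.66 over all arrays. The part of these measures in the axis was not tested, and the labels give no scan date or extraction batch.

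Each line was set against M82, the comparison that the series design names. The difference of group means was not used in the choice of the 200, but their large within-group SD enters the standard error, so calls were hard to reach. In limma, with Benjamini-Hochberg adjustment over all 10101 probe sets tested and a threshold of 0.05, 0 of the 200 were called in IL-1_1_3 (1.97% of all probe sets were), 0 in IL-4_2 (1.83%), 0 in IL-7_2 (2.84%) and 1 in IL-8_1_1 (1.44%). At an unadjusted p of 0.05, 45, 14, 13 and 9 of the 200 passed in those lines (22.5%, 7%, 6.5% and 4.5%), against 20.1%, 12.5%, 13.7% and 6.82% of all. An unmoderated test on the same values called 0 in each line. Separate plants are not stated in the labels, so the p-values reflect how these samples spread, and that spread may be technical.

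Probe sets with a wide spread within groups also have wide differences of means by that spread alone, so the sizes below are a description. The median size of the log2 change was 0.91 in IL-1_1_3, 0.67 in IL-4_2, 0.46 in IL-7_2 and 0.66 in IL-8_1_1 among the 200, with a median standard error of 0.71 within IL-1_1_3 and 0.65 in the other lines. Over all probe sets it was 0.16, 0.12, 0.11 and 0.10, with median standard errors of 0.13 and 0.12. Log2 changes of at least 1 in either direction were found in 91, 58, 35 and 51 of the 200 (45.5%, 29%, 17.5% and 25.5%), against 3.2%, 1.61%, 1.52% and 1.51% of all. Separation of the arrays was rare: 7 of the 200 (3.5%) had all IL-1_1_3 arrays on 1 side of all M82 arrays, against 11.4% of all probe sets. The counts were 2 (1%) in IL-4_2 against 5.34%, 0 in IL-7_2 against 3.78%, and 2 (1%) in IL-8_1_1 against 2.61%. The 200 were chosen for a wide spread within groups, M82 included, which makes such separation harder to reach. The lower shares therefore follow in part from the choice and are a description.

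In both large clusters most mean differences of a line from M82 had 1 sign, apart from cluster 1 in IL-7_2, while the mean levels of the arrays overlapped with those of M82. In cluster 1, the mean was higher than in M82 for 101 of 109 probe sets in IL-1_1_3 (median log2 change 0.82), 97 in IL-4_2 (0.46), 46 in IL-7_2 (-0.12) and 92 in IL-8_1_1 (0.54). In cluster 2, it was lower for 63 of 64 in IL-1_1_3 (-1.54), 62 in IL-4_2 (-0.96), 54 in IL-7_2 (-0.58) and 58 in IL-8_1_1 (-0.70). None of these 173 probe sets passed the adjusted threshold in any line. At an unadjusted p of 0.05 (limma), 36 of the 64 in cluster 2 passed in IL-1_1_3, 10 in IL-4_2, 9 in IL-7_2 and 3 in IL-8_1_1. Of the 109 in cluster 1, 6, 1, 4 and 1 passed in the same order of lines. Over all probe sets, 20.1%, 12.5%, 13.7% and 6.82% passed. The probe sets of a cluster move together and the 4 comparisons share the 6 M82 arrays, so these counts are not independent observations.

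The counts in IL-1_1_3 depended on single arrays. Without M82 array 3, 15 of the 200 were called, all lower in IL-1_1_3 (7.5%, against 5.81% of all), and without IL-7_2 array 2 the count was 7 (3.5%, against 6.19%). Without IL-7_2 array 2, IL-4_2 array 3 and M82 array 3 together, a setting chosen after the data had been seen, 9 were higher and 48 lower in IL-1_1_3 (28.5%, against 19% of all). IL-7_2 array 2 is in neither group of that comparison but enters the shared spread. LesAffx.63776.1.S1_at, of cluster 2, had the smallest p in IL-1_1_3. It stood at 4.75, 4.35 and 4.28 in IL-1_1_3, and in M82 its lowest array was at 4.97, the median was 8.61 and the highest 9.03. All 3 IL-1_1_3 arrays lay below all 6 M82 arrays, and the log2 change of -3.48 ± 0.97 (SE) did not pass (limma, adjusted p = 0.0651).

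LesAffx.30832.1.S1_at, outside the 4 clusters, was the only one called against M82. It stood at 6.19, 6.05, 8.56 and 6.62 in IL-8_1_1 (mean 6.85 ± 1.16, SD, n = 4), and in M82 the lowest array was at 9.55, the median at 9.91 and the highest at 10.06 (mean 9.88 ± 0.18, n = 6). All 4 IL-8_1_1 arrays lay below all 6 M82 arrays. The log2 change was -3.03 ± 0.73 (SE, limma, adjusted p = 0.0432). The call ended in 17 of 32 other settings, with an adjusted p of 0.0646 without M82 array 3, 0.171, 0.192 and 0.14 without IL-8_1_1 arrays 1, 2 and 4, and 0.0821 in the unmoderated test. Leaving out any M82 array, any IL-4_2 array or IL-1_1_3 array 3 ended it as well. It stood at 10.60, 7.75 and 9.52 in IL-1_1_3, at 10.53, 10.27, 11.39 and 10.21 in IL-4_2, and at 9.55, 5.19, 9.48 and 9.43 in IL-7_2. In IL-7_2 only array 2 was low.

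The lines were also set against each other, to ask whether what was called in 1 line differed from the other lines. For LesAffx.30832.1.S1_at, IL-4_2 was higher than IL-8_1_1 by 3.75 ± 0.80 log2 units (SE, limma, adjusted p = 0.0102), while the differences of IL-1_1_3 and IL-7_2 from IL-8_1_1 did not pass (adjusted p = 0.257 and 0.351). Over the 6 pairs of lines there were 6 calls, of 4 probe sets. No call was made between IL-1_1_3 and IL-4_2 (1.67% of all probe sets were called) or between IL-1_1_3 and IL-8_1_1 (1.48%), where 2 and 10 of the 200 had an unadjusted p under 0.05 (1% and 5%, against 8.79% and 9.65% of all) and the unmoderated test called 0 of them in either pair. The counts were 1 between IL-1_1_3 and IL-7_2 (3.27% of all), 2 between IL-4_2 and IL-7_2 (4.92%), 1 between IL-4_2 and IL-8_1_1 (2.33%) and 2 between IL-7_2 and IL-8_1_1 (4.46%). The 3 probe sets other than LesAffx.30832.1.S1_at are described because of these calls, after their values had been seen.

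LesAffx.57251.1.S1_at set IL-7_2 apart from the other 3 lines. It stood at 8.14, 8.35 and 7.05 in IL-1_1_3, at 7.85, 8.06, 6.97 and 8.16 in IL-4_2, at 11.03, 9.05, 11.19 and 11.58 in IL-7_2 and at 8.67, 7.25, 8.58 and 7.97 in IL-8_1_1. Every IL-7_2 array lay above every array of the other 3 lines. IL-1_1_3 was below IL-7_2 (log2 change -2.87 ± 0.67, adjusted p = 0.0205), IL-4_2 was below it (-2.95 ± 0.62, adjusted p = 0.00615), and IL-7_2 was above IL-8_1_1 (2.60 ± 0.62, adjusted p = 0.017, limma). IL-7_2 against M82, where the lowest array was at 6.53, the median at 9.11 and the highest at 9.59, gave 2.01 ± 0.56 and did not pass (adjusted p = 0.0673). The calls against IL-1_1_3 and IL-8_1_1 ended without IL-7_2 array 3 (0.0682 and 0.0588) or array 4 (0.0704 and 0.0641). The call against IL-1_1_3 also ended without IL-1_1_3 array 1 (0.0568) or 3 (0.104), and the call against IL-8_1_1 ended without IL-8_1_1 array 2 (0.0737).

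LesAffx.105.1.S1_at, of cluster 1, was high in IL-4_2, at 12.27, 11.24, 13.40 and 11.73, against 7.70, 11.58, 6.47 and 6.93 in IL-7_2. IL-7_2 array 2 lay among the IL-4_2 arrays and the other 3 lay below them. The difference of 3.99 ± 1.04 passed (limma, adjusted p = 0.0302). That call ended, at 0.0547 to 0.103, without any of IL-4_2 arrays 1, 3 and 4 or IL-7_2 arrays 1, 3 and 4. Against M82 (lowest 6.85, median 8.57, highest 10.76), all IL-4_2 arrays were higher, and the log2 change of 3.43 ± 0.95 did not pass (adjusted p = 0.0824). The IL-1_1_3 arrays ran from 8.62 to 11.81, overlapping IL-4_2, and the IL-8_1_1 arrays from 7.65 to 10.09. The difference of IL-4_2 from these lines did not pass either (limma, adjusted p = 0.685 for IL-1_1_3 and 0.184 for IL-8_1_1).

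LesAffx.37916.1.S1_at, outside the 4 clusters, was lower in IL-7_2 than in IL-8_1_1, at 5.83, 5.19, 4.94 and 4.92 against 8.53, 9.06, 6.99 and 6.53. The IL-7_2 values are near the bottom of the scale, and without the dimmest 25% of probe sets it was not among those tested. The 2 lines did not overlap, and the difference was -2.56 ± 0.62 (limma, adjusted p = 0.0196). The call ended without IL-7_2 array 3 (0.0591) or 4 (0.0557), or IL-8_1_1 array 1 (0.0776) or 2 (0.0891). M82 was low as well (lowest 4.85, median 5.97, highest 7.05), and neither line passed against it. The log2 change from M82 was -0.74 ± 0.57 in IL-7_2 (limma, adjusted p = 0.625) and 1.82 ± 0.57 in IL-8_1_1 (adjusted p = 0.205). The means of IL-1_1_3 and IL-4_2 were 7.54 and 7.37.

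Of the arrays left out singly, IL-7_2 array 2 changed the calls between lines most. Without it there were 139 calls of 71 probe sets. Of the 200, 63 were called between IL-1_1_3 and IL-7_2 (31.5%, against 21.1% of all probe sets), 43 between IL-4_2 and IL-7_2 (21.5%, against 14.7%) and 30 between IL-7_2 and IL-8_1_1 (15%, against 9.47%). IL-1_1_3 was higher in 40 and lower in 23 of its 63, IL-4_2 higher in 30 and lower in 13 of its 43, and IL-7_2 higher in 5 and lower in 25 of its 30. The number of calls among all probe sets grew with that array left out too, and the 200 were chosen with a large part of their spread in it.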

How the data were processed

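The deposited table holds log2 expression (10209 probe sets in 21 arrays), a scale judged from its values. The authors used the affy package per the submitters' processing notes. Its version, the summarisation and the normalisation were not given in the sources at hand. Groups and array numbers follow the titles. The 108 AFFX controls were left out of all tests, and the 63 RPTR reporter probe sets were also left out of the ranking. Symbols (909 probe sets, 802 symbols) come from GEO's platform annotation, which can be old.

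All 10101 probe sets were fitted in limma 3.58.1 (R 4.3.3) with 5 group means over 21 arrays, eBayes and Benjamini-Hochberg adjustment, and the fit was tested on simulated data. Clusters, axes and correlations were computed in Python 3.11.15 with numpy 2.4.6, pandas 2.3.3 and scipy 1.17.1.

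Probe sets and lists were chosen with earlier results of these data known. Members were picked for naming as the 10 with the highest SD, 2 on each side of the threshold, 3 per cluster nearest its mean, and called ones. Not all of those picked are named in the text, and some others were chosen after their values were seen. Genes named are the 12 highest and 12 lowest correlations with cluster 1 (6 and 6 for the others), the 20 most variable, and examples of lists; a gene stands by its brightest probe set. Lists of pollen, tapetum, photosynthesis, vascular, epidermal and stress markers were drawn up first, and the other lists after correlations had been seen. Alternatives were other normalisations, filters, spreads, list sizes, priors, a replicate block and each array left out. Sequences were not used here.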

Additional observations from a re-analysis of the deposited data

Results flagged for a closer look

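The probe sets picked for naming and the cluster means, by group, made 136 sets of 4 to 6 arrays. Of these, 13 had an end array whose gap to its neighbour passed Dixon's critical value at the 95% level. Chance flags about 1 in 20 such sets, but probe sets and clusters were chosen on these same deviations, so the count cannot be read against that rate and the values are a description. Of the 13, 8 were in cluster 3. LesAffx.10955.1.S1_at, LesAffx.10955.2.S1_at and LesAffx.10955.3.S1_at stood apart in IL-8_1_1 array 4 (8.70, 8.713 and 9.488) and in M82 array 4 (11.60, 11.69 and 12.31). The mean of the cluster did so in the same arrays (8.825 in IL-8_1_1 and 10.89 in M82). LesAffx.30832.1.S1_at stood apart in IL-7_2 array 2 (5.189), LesAffx.62975.1.S1_at of cluster 1 in IL-4_2 array 3 (12.05), and Les.745.1.A1_at of cluster 2 in IL-4_2 array 3 (7.814) and IL-8_1_1 array 2 (7.909). LesAffx.57779.1.S1_at, just below the threshold, stood apart in M82 array 4 (9.633).

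The other results listed here are differences between lines that passed limma's test, which is the test of the difference of 2 lines' changes against M82. For LesAffx.57251.1.S1_at they were -2.867 (IL-1_1_3 minus IL-7_2), -2.952 (IL-4_2 minus IL-7_2) and 2.595 (IL-7_2 minus IL-8_1_1). They were 3.993 for LesAffx.105.1.S1_at (IL-4_2 minus IL-7_2), 3.747 for LesAffx.30832.1.S1_at (IL-4_2 minus IL-8_1_1) and -2.557 for LesAffx.37916.1.S1_at (IL-7_2 minus IL-8_1_1), all in log2 units.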

How the results depend on the processing

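The share of the first axis (69.4%) was 72.7% without the dimmest 25% of probe sets, 56.9% to 71.9% with each array left out, 52.2% without IL-7_2 array 2, IL-4_2 array 3 and M82 array 3, and 54.8% without the 4 IL-7_2 arrays. The largest array share (24.1%) was 28.5% with the median absolute deviation, 12.5% to 27.5% with each array left out, 14.6% without the 3 arrays and 15.2% without IL-7_2. It was then held by M82 array 3 without IL-7_2 array 2 or without all of IL-7_2, and by IL-7_2 array 1 without the 3 arrays. The rule found 166 to 200 of the 200 again with each array left out, 197 with quantile normalisation, 193 with cyclic loess, 157 without dim probe sets and 139 with the median absolute deviation. The largest cluster held 94 to 124 probe sets with each array left out.

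With each array left out, 0 to 15 of the 200 were called in IL-1_1_3, 0 to 2 in IL-4_2, 0 to 6 in IL-7_2, 0 to 1 in IL-8_1_1 and 3 to 139 between lines. The 6 in IL-7_2 came without its array 2 (3.57% of all called) and 3 without its array 3 (2.41%). The 2 in IL-4_2 came without M82 array 3 (2.35% of all), and 1 without IL-7_2 array 2 (3.07%). Without IL-7_2 array 4, 3 calls between lines were left. Without the 3 arrays, 57, 2, 2 and 2 were called in the 4 lines (19%, 2.1%, 2.87% and 2.27% of all) and 166 calls were made between lines (13.8% over the 6 pairs, against 9.73% of all). In IL-8_1_1 the count was 0 in the unmoderated test and at an adjusted p of 0.01, where 1 call was left between lines. For LesAffx.30832.1.S1_at the adjusted p ran from 0.000916 to 0.192 with each array left out. The cause of these changes was not tested beyond the arrays left out.

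Same-numbered arrays of different groups correlated at -0.81 to 0.70 over probe sets (36 pairs, median -0.07). Differently numbered ones correlated at -0.78 to 0.78 (138 pairs, median 0.02). The same number thus did not go with a higher correlation, and whether such arrays shared a batch was not tested. With the replicate block the axis held 75.1%, 186 of the 200 were found again, 0 were called in IL-8_1_1 (LesAffx.30832.1.S1_at, adjusted p = 0.0952) and 3 calls were left between lines. Those that ended were LesAffx.105.1.S1_at (0.0597), LesAffx.37916.1.S1_at (0.0554) and LesAffx.57251.1.S1_at between IL-1_1_3 and IL-7_2 (0.0624). Signal over background is not given, the groups are small, and what the unnamed probe sets encode is not known here.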
